A study of Mus musculus with 40 samples.

Results

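A list of 40 genes that act in DNA replication and cell division was followed in the brains of newborn mice given lipopolysaccharide (LPS), hypoxia-ischaemia (HI) and the peptide IDR-1018. The members were chosen by name for their known function, but with earlier results of these data known. Of the 40, 39 had a probe set that carried their symbol alone, among 19937 genes measured in the same way. The remaining gene, Ccnb1, was not analysed here. By the phase in which they are known to act, 13 of the 39 were S phase genes and 26 were mitosis genes. Ccna2, whose cyclin works in S phase and G2, was counted with the mitosis genes. Where a gene had several probe sets, which held for Top2a and Pcna, the brightest was used.

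The series holds 40 Affymetrix arrays of C57/Bl6 brain taken at postnatal day 9, in 8 groups of 5. LPS is a bacterial cell wall component that triggers innate immunity, and HI is a loss of oxygen and blood flow used to model brain injury around birth. IDR-1018 is a synthetic peptide that modulates innate immune responses. The Vehicle and IDR groups had vehicle or the peptide 10 h before removal of the uninjured brain. The LPS group had LPS 6 h before removal, and no earlier dose is named for it. The LPS with IDR group had the peptide 4 h before LPS and was taken 6 h after LPS. For the 4 groups with LPS and then HI, a dose of vehicle or peptide preceded LPS by 4 h, HI followed 14 h after LPS, and tissue was taken 6 h after HI. Their left hemisphere is the injured side and their right hemisphere the uninjured side, with and without the peptide. The tissue of the other 4 groups is labelled brain with no hemisphere, so LPS/HI against Vehicle or IDR also sets a hemisphere against brain and a later time against an earlier one. The sources used here do not say that each array is a separate animal, so p-values measure the spread between arrays, which may be technical.

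Neuronal and glial markers had the signals of brain tissue on all 40 arrays. Snap25 and Map2, of neurons, lay at percentiles 99.7 and 99.6 of all genes by mean signal, and Dcx, of young neurons, at 97.1. Mbp, Gfap and Pdgfra, of oligodendrocytes, astrocytes and oligodendrocyte progenitors, lay at percentiles 87.7, 82.5 and 91.2. Array medians ran from 6.99 to 7.13 log2 units, and array pairs correlated at 0.986 to 0.998. A single array stood apart: injured LPS/HI replicate 3 had both a female signal (Xist at 11.2) and a male signal (Y-linked genes at a mean of 8.01), and no other array had both. Counts of called genes that use this array are given with and without it. Arrays with high Xist numbered 2 of 5 in Vehicle, 1 of 5 in IDR, 5 of 5 in LPS, 2 of 5 in LPS with IDR, 4 of 5 in each LPS/HI group without the peptide and 3 of 5 in each with it.

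Cells that commit to division first license replication origins by loading the MCM helicase, then copy DNA, and in mitosis build a spindle that attaches chromosomes through kinetochores and ends in cytokinesis. E2F factors drive many genes of the first step, whereas many mitosis genes peak later through a promoter element called the CHR (cell cycle genes homology region), read by the MuvB complex and often paired with CCAAT boxes read by NF-Y. In the brain of the newborn mouse, dividing cells include granule cell precursors of the cerebellum, progenitors of the subventricular zone, oligodendrocyte progenitors, other glia and vessel cells. RNA of these genes in whole tissue therefore follows how many cells divide and how much RNA each holds, and in bulk samples fewer dividing cells and less RNA per cell cannot be told apart.

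The promoters of the members differed by phase in the motifs they held. RefSeq promoter windows of mouse assembly GRCm38.p6, from 250 bases before to 50 bases after the start site, were found for 32 of the 39 measured members. Mcm4, Ccna2, Ccne2, Aurkb, Kif20a, Tpx2 and Foxm1 had no window. Both strands were searched for the CHR core TTTGAA, for the E2F form TTCCCGC, its variant TTCGCGC, the further form TTGCCGC with its relative TTGGCGC, and for the NF-Y box CCAAT. An E2F match and a CCAAT match can share bases, as can E2F matches on opposite strands. The CHR core was in 16 of 21 mitosis promoters (76.2%) and in 2 of 11 S phase promoters (18.2%), beside 20.2% of all 27025 genes with a window. E2F forms were in 3 of 21 mitosis promoters (14.3%) and 7 of 11 S phase promoters (63.6%), beside 10.9% of all genes. CCAAT was in 18 of 21 (85.7%) and 9 of 11 (81.8%), beside 41.1% of all genes. A match is a description of the letters in the window, not a bound site. Motif and test result did not always go together. Cenpe and Nusap1 fell in injured tissue with the peptide and held no CHR core. The mitosis genes Cdk1, Ccnb2, Aurka, Plk1, Bub1b, Cenpa, Kif23 and Cdc20 held one and did not pass the test against Vehicle or IDR. The S phase genes Mcm2 and Cdc45 also held one and did not pass it. A link between motif and fall was not tested. The 6 windows below were chosen by hand to show both kinds of promoter: 3 mitosis genes that fell in injured tissue (Kif11, Mki67 and Cenpf) and 3 S phase genes that did not pass the test (Mcm7, Rrm2 and Mcm5). Kif11 fell there against Vehicle and against IDR, whereas Mki67 and Cenpf fell against IDR only. Cenpf also fell on the uninjured side against IDR. The windows run 5′ to 3′ on the gene's strand, and capitals mark every motif match on either strand.
Kif11 promoter, chr19:37376132-37376431, + strand: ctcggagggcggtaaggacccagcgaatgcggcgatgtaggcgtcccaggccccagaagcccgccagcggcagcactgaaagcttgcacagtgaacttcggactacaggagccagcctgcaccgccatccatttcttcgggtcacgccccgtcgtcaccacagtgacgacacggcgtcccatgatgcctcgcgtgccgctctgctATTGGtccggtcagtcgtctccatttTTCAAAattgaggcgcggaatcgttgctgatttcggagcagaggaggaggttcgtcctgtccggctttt
Mki67 promoter, chr7:135716330-135716629, - strand: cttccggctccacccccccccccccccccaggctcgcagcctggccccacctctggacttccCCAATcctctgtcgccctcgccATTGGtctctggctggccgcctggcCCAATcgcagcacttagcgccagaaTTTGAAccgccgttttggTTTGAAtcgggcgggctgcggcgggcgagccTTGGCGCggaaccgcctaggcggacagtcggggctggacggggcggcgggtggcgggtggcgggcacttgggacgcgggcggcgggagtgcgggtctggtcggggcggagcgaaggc
Cenpf promoter, chr1:189688037-189688336, - strand: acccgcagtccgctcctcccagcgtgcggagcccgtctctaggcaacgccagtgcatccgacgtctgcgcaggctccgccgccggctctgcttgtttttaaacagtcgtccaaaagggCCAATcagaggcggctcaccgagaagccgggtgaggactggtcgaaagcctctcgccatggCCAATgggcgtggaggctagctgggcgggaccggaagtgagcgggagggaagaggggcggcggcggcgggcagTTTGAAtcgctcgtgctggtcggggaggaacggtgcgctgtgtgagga
Mcm7 promoter, chr5:138171834-138172133, - strand: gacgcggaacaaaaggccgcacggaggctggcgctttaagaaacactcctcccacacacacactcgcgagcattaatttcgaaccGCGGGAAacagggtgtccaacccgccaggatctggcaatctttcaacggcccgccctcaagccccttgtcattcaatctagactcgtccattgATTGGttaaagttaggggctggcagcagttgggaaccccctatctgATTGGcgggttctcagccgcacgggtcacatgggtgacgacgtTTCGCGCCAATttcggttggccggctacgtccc
Rrm2 promoter, chr12:24708004-24708303, + strand: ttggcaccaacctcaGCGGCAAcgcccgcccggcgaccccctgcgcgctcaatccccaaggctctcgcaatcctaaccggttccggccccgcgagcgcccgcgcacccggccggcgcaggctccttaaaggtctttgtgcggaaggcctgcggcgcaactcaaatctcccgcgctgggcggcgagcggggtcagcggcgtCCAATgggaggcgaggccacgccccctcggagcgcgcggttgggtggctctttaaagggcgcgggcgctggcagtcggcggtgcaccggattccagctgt
Mcm5 promoter, chr8:75109259-75109558, + strand: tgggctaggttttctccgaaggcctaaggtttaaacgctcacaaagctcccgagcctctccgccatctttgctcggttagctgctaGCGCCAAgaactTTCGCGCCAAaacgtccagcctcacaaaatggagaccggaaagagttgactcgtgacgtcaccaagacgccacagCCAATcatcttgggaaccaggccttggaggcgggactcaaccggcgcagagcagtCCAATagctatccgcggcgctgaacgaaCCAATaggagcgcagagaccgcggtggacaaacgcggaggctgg

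Kif11 held its CHR core in reverse, its first base at -19 from the start site, with a CCAAT box read in reverse at -45. Mki67 held 2 CHR cores at -116 and -98, 3 CCAAT matches at -188, -166 and -141, and an E2F form at -67. In Cenpf the CHR core began at 3 bases after the start, downstream of CCAAT matches at -132 and -71. The 3 S phase windows held no CHR core. Mcm5 had 3 E2F matches between -164 and -149, of which those at -152 and -149 overlap on opposite strands. In Mcm7 the E2F matches at 18 and 21 overlap each other and a CCAAT match at 24, and a further E2F match lies at -165. Rrm2 had an E2F match at -235 and a CCAAT match at -50.

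**Figure D1:**
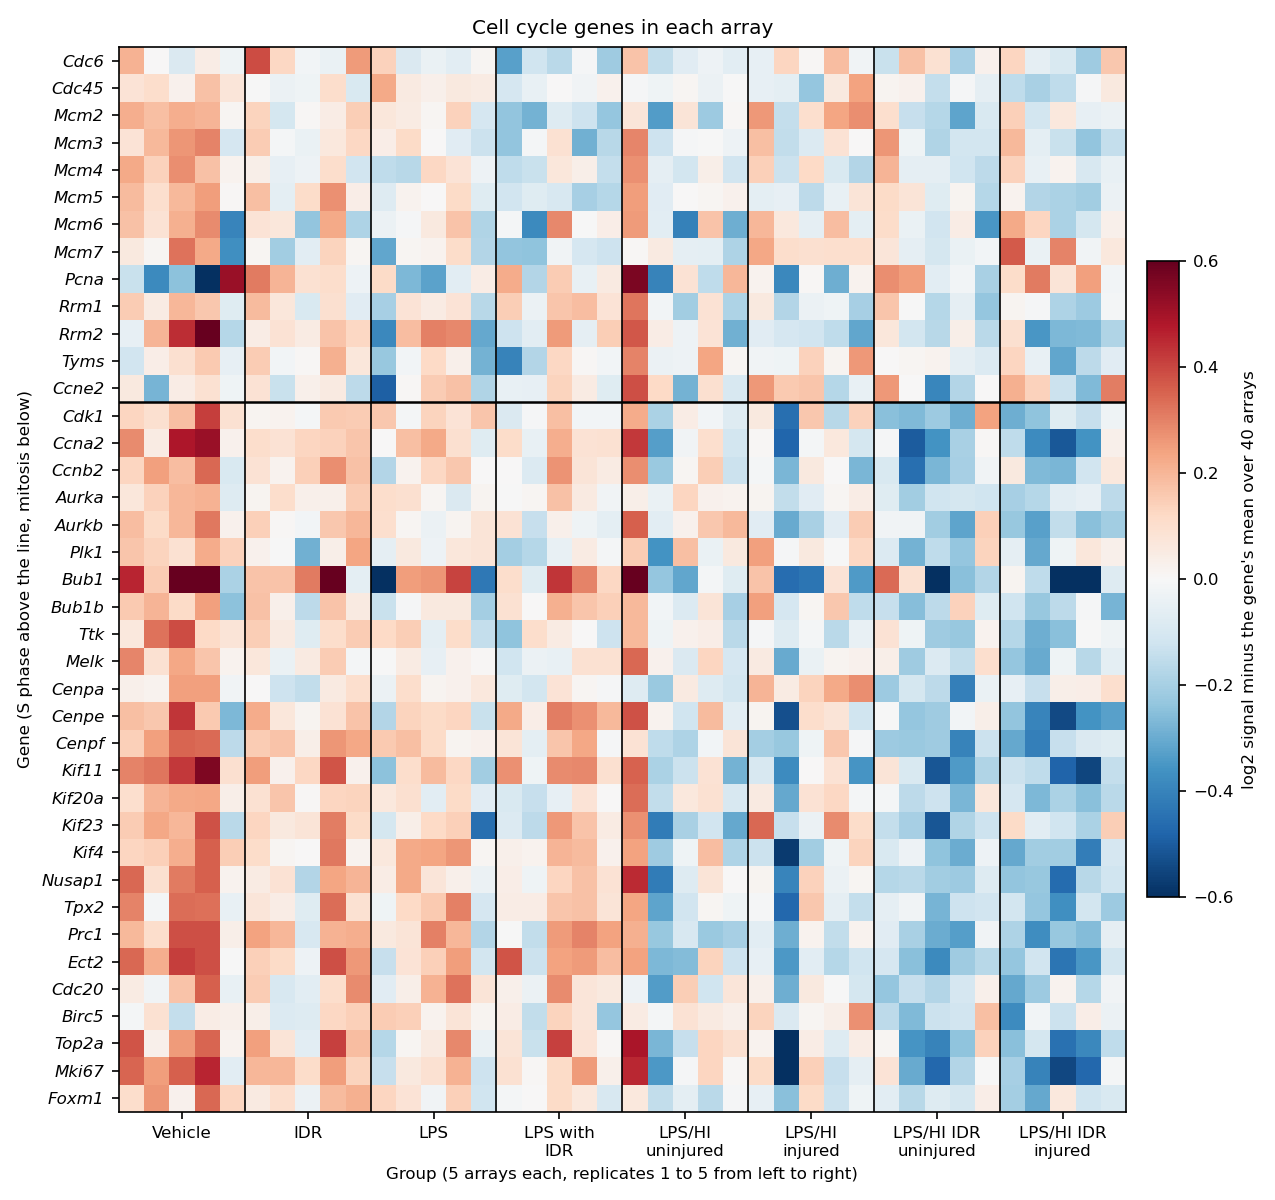
Signal of the 39 measured genes (rows) in the 40 arrays (columns, in groups of 5), as the log2 signal minus the gene's mean over all arrays. Red is above and blue below that mean, and values past the ends of the scale take its end colour. Vehicle arrays are mostly red in the mitosis rows, and the LPS/HI arrays with IDR mostly blue.

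Most mitosis genes had their highest mean in Vehicle and all had their lowest in an LPS/HI hemisphere of peptide-treated pups. Of the 26 mitosis genes, 21 had their highest group mean in Vehicle, 20 had their lowest in the injured hemisphere with IDR, and the other 6 had it in the uninjured hemisphere with IDR. Of the 13 S phase genes, 7 were highest in Vehicle and 7 lowest in LPS with IDR. The contrast between the phases was not tested. Averaged over the 26 mitosis genes, the deviation from each gene's overall mean was 0.18 ± 0.13 log2 units in Vehicle, 0.11 ± 0.086 in IDR, 0.044 ± 0.092 in LPS and 0.065 ± 0.091 in LPS with IDR (mean ± SD, n = 5). The same mean was -0.0025 ± 0.17 in the uninjured and -0.055 ± 0.14 in the injured LPS/HI hemisphere, and -0.15 ± 0.11 and -0.19 ± 0.070 in those with IDR. All 5 injured arrays with IDR lay below 0 (-0.25 to -0.080) and 4 of 5 Vehicle arrays above it (-0.018 to 0.33). The spread within groups was wide, from -0.20 to 0.26 among uninjured LPS/HI arrays. For the 13 S phase genes, group means lay between -0.059 in LPS with IDR and 0.076 in Vehicle. These means describe the arrays and were not tested, and the comparisons below are tested gene by gene.

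**Figure D2:**
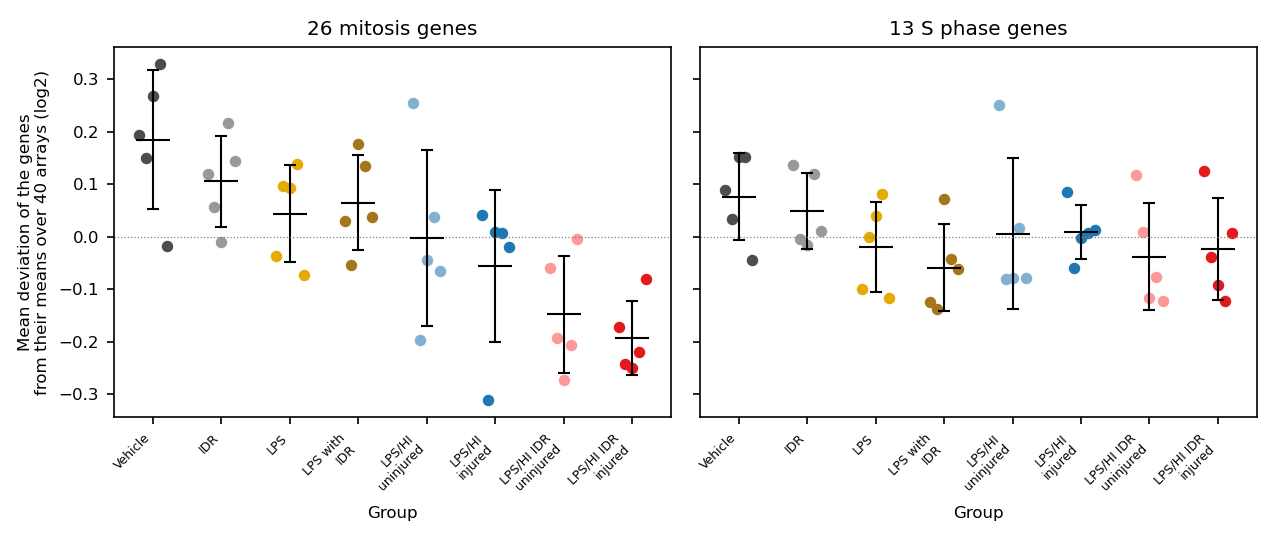
Mean deviation of the 26 mitosis genes (left) and the 13 S phase genes (right) from each gene's mean over 40 arrays, in log2 units, for each array (points) with the group mean and SD (bars, n = 5). Mitosis means go from 0.18 ± 0.13 in Vehicle to -0.19 ± 0.070 in the injured LPS/HI hemisphere with IDR, and the S phase values of all groups overlap.

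The injured hemisphere was first set against Vehicle or IDR brain, which asks how the genes stood 6 h after HI. Genes were tested with limma, and a gene is called where its p, adjusted by Benjamini-Hochberg over all 19937 genes, is under 0.05. In injured LPS/HI against Vehicle, 4 of 39 members (10.3%) were lower and 0 higher, where 3.89% of all genes were called lower and 4.45% higher. In injured LPS/HI with IDR against IDR, 13 of 39 (33.3%) were lower and 0 higher, where 2.35% of all genes were called lower and 3.52% higher. All 17 of these calls were of genes counted as mitosis genes, among them Ccna2, which also acts in S phase. Of the 13 S phase genes limma called 0 in either comparison, and 4 and 2 of them were lower at an unadjusted p under 0.05. Of the 26 mitosis genes 16 and 22 were, beside 11.6% and 8.68% of all genes. The median log2 fold change of the mitosis genes was -0.25 without and -0.30 with the peptide, and that of the S phase genes -0.020 and -0.079, beside -0.013 and -0.0063 over all genes. The first count moved with the arrays used. It was 2 without injured replicate 2 or 4 or without Vehicle replicate 1, 3 or 4, it was 11 without Vehicle replicate 5, and it stayed at 4 without injured replicate 3, of which 3 were the same genes, where 4.33% of all genes were lower. Without that array the medians were -0.28 for the mitosis and -0.0088 for the S phase genes. Same-numbered arrays of these groups correlated at 0.116 to 0.443, and 3 of 5 injured arrays correlated best with the Vehicle array of their number. The labels do not say what the number marks, so a pairing of these groups is not given. With the replicate number as a block 12 members were lower, among them the S phase gene Mcm4, where 5.86% of all genes were. Fitted with the other groups the count was 10, and with Xist as a covariate 2. The second count ranged from 9 to 13 when any array was left out. The replicate block lowered it, ending the calls of Ccna2, Kif11, Kif4, Prc1 and Tpx2. Same-numbered arrays of these 2 groups correlated at -0.43 to 0.218. The second count reached 22 with the mean signal of ribosomal protein genes as a covariate, where the count over all genes went from 1171 to 3318.

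**Figure D3:**
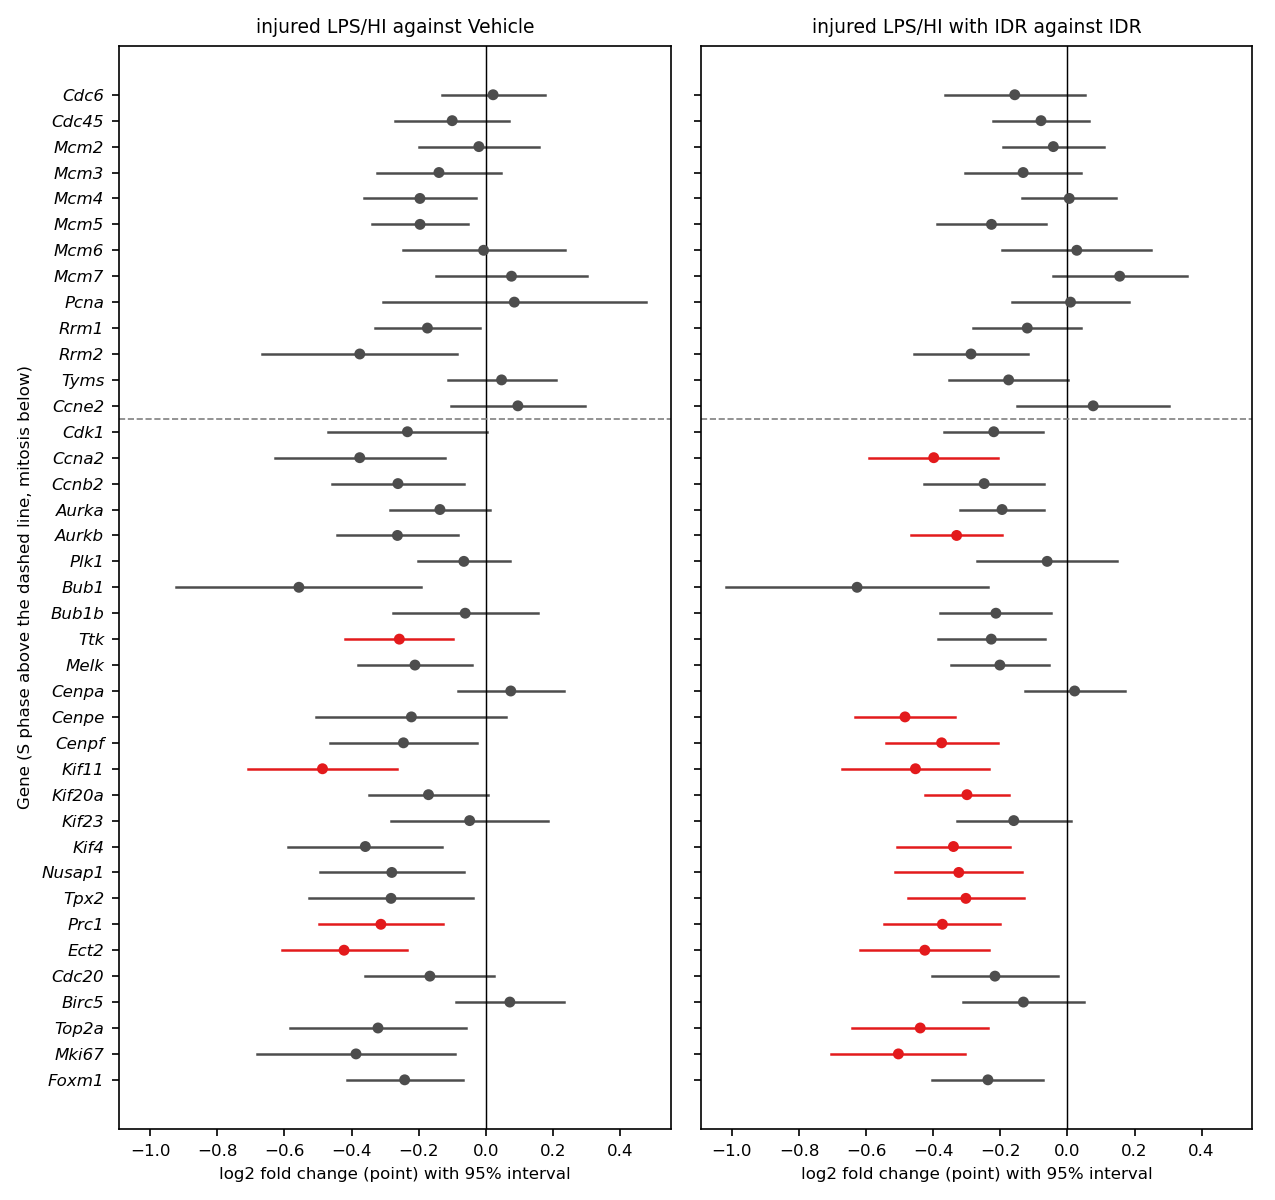
Log2 fold change (points) with 95% interval (lines) of each gene in injured LPS/HI against Vehicle (left) and in injured LPS/HI with IDR against IDR (right), from limma with 5 arrays a group. Red marks an adjusted p under 0.05, and the dashed line parts the 13 S phase genes (above) from the 26 mitosis genes. The 4 red genes on the left are Ttk, Kif11, Prc1 and Ect2, and all 13 on the right lie below 0.

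Origin licensing and firing were represented by Cdc6, which loads the helicase, Cdc45, which activates it, and Mcm2 to Mcm7, its 6 subunits. None of these 8 was called by limma in the 14 comparisons of 2 groups, each fitted on its own arrays. Other fits called some of them. With the replicate number as a block, limma called Mcm4 lower in injured LPS/HI against Vehicle (-0.20, adjusted p = 0.0492). Fitted to all 8 groups, Cdc6 (adjusted p = 0.0409) and Mcm5 (0.0493) were lower in LPS with IDR against IDR. Mcm5 signals were 8.00, 7.91, 8.01, 8.06 and 7.82 in Vehicle and 7.99, 7.76, 7.92, 8.09 and 7.85 in IDR. They were 7.73, 7.83, 7.81, 7.93 and 7.74 in LPS and 7.70, 7.74, 7.72, 7.62 and 7.64 in LPS with IDR. The arrays of LPS with IDR lay below all IDR arrays, yet the difference missed the threshold (log2 fold change -0.24, SE 0.065, adjusted p = 0.115). In the LPS/HI hemispheres Mcm5 was at 8.06, 7.75, 7.81, 7.82 and 7.84 on the uninjured and 7.75, 7.76, 7.65, 7.77 and 7.89 on the injured side. With the peptide it was at 7.93, 7.89, 7.74, 7.83 and 7.64 and 7.83, 7.64, 7.62, 7.60 and 7.77. Most injured arrays lay below most Vehicle arrays, but the groups overlapped (log2 fold change -0.20, SE 0.066, adjusted p = 0.0894). Mcm2 followed another course. Its signals were 8.33, 8.29, 8.33, 8.31 and 8.12 in Vehicle, 8.24, 8.01, 8.12, 8.15 and 8.26 in IDR and 8.18, 8.16, 8.12, 8.25 and 8.01 in LPS. It was lowest in LPS with IDR, at 7.87, 7.83, 8.03, 7.99 and 7.88, and this was below the LPS group in 4 of 5 arrays without passing the threshold (log2 fold change -0.22, SE 0.062, adjusted p = 0.326). Across the hemispheres it was 8.18, 7.77, 8.19, 7.89 and 8.12 uninjured and 8.37, 7.96, 8.21, 8.35 and 8.39 injured, and with the peptide 8.21, 7.97, 7.94, 7.80 and 8.02 and 8.25, 8.00, 8.17, 8.06 and 8.07. The injured side thus lay near the Vehicle level (log2 fold change -0.020, SE 0.084, adjusted p = 0.935). For Mcm7 the injured side was above Vehicle and above IDR, though within the spread (0.077, 95% interval -0.15 to 0.30, and 0.16, -0.044 to 0.36). Cdc6, Cdc45, Mcm3, Mcm4 and Mcm6 had log2 fold changes from -0.20 (Mcm4) to 0.022 (Cdc6) against Vehicle and from -0.16 (Cdc6) to 0.028 (Mcm6) against IDR.

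The fork and nucleotide group held Pcna, the sliding clamp of DNA polymerases, Rrm1 and Rrm2, the subunits of ribonucleotide reductase, and Tyms, which makes thymidylate. No member of this group was called by limma. Of the 13 S phase genes, Rrm2 had the largest fitted differences in both injured comparisons with the controls. Its signals were 8.03, 8.29, 8.53, 8.79 and 7.91 in Vehicle and 8.01, 7.98, 7.97, 7.93 and 7.77 in injured LPS/HI, so that the injured arrays were tightly grouped and 1 Vehicle array lay among them (log2 fold change -0.38, SE 0.14, adjusted p = 0.111). With the peptide, IDR arrays were at 8.13, 8.17, 8.13, 8.25 and 8.21 and injured arrays at 8.18, 7.74, 7.82, 7.82 and 7.91, with 1 injured array inside the IDR range (log2 fold change -0.29, SE 0.079, adjusted p = 0.0513). The uninjured hemispheres were at 8.46, 8.13, 8.05, 8.17 and 7.79 without and 8.15, 7.97, 7.92, 8.12 and 7.92 with the peptide. In LPS the values were 7.70, 8.27, 8.39, 8.37 and 7.78, with 2 low and 3 high arrays, and in LPS with IDR 7.96, 8.02, 8.34, 8.03 and 8.23. Pcna went its own way. It was at 10.33, 10.08, 10.22, 9.65 and 10.98 in Vehicle and 10.77, 10.67, 10.56, 10.57 and 10.43 in IDR, and Vehicle spanned more than any other group. In LPS it was at 10.58, 10.19, 10.14, 10.40 and 10.50, and in LPS with IDR at 10.69, 10.29, 10.62, 10.42 and 10.51. The LPS/HI arrays were at 11.03, 10.06, 10.55, 10.31 and 10.66 on the uninjured and 10.48, 10.08, 10.47, 10.17 and 10.48 on the injured side, and with the peptide at 10.74, 10.71, 10.40, 10.44 and 10.27 and 10.57, 10.78, 10.54, 10.71 and 10.45. No group stood clear of another, and injured LPS/HI against Vehicle gave a log2 fold change of 0.085 (95% interval -0.31 to 0.48). The other Pcna probe set gave another order: its means were 10.35 in Vehicle and 10.29 in IDR, where the brighter set had 10.25 and 10.60. Rrm1 was lower by the fit in both injured comparisons (-0.17 and -0.12) and Tyms differed in sign (0.047 and -0.18), all 4 values past no threshold (adjusted p from 0.176 to 0.803). Cyclin E2 (Ccne2), which drives entry into S phase, was at 0.10 and 0.077.

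Among the cyclins and Cdk1, Ccna2 fell in injured tissue with the peptide. Cyclin A2 works in S phase and G2, Ccnb2 encodes a mitotic B cyclin, and Cdk1 is the kinase that they activate. Ccna2 was at 8.34, 8.32, 8.36, 8.37 and 8.40 in IDR and 8.08, 7.86, 7.73, 7.88 and 8.26 in injured LPS/HI with IDR, a 1.32-fold lower signal with no overlap (log2 fold change -0.40, SE 0.089, adjusted p = 0.0195). Without the peptide the difference was of like size, but the Vehicle arrays (8.52, 8.28, 8.72, 8.75 and 8.26) spread more, the injured arrays (8.24, 7.76, 8.22, 8.30 and 8.13) overlapped them, and the gene was not called (log2 fold change -0.38, SE 0.12, adjusted p = 0.067). The replicate block reversed both results by limma. With it Ccna2 was called against Vehicle (adjusted p = 0.00855) and not called against IDR (adjusted p = 0.0526). Uninjured hemispheres were at 8.66, 7.90, 8.21, 8.34 and 8.12 without and 8.23, 7.74, 7.88, 8.04 and 8.24 with IDR. The early LPS groups lay between, at 8.24, 8.42, 8.46, 8.33 and 8.16 and, with the peptide, 8.35, 8.19, 8.45, 8.32 and 8.33. Ccnb2 and Cdk1 were below the controls by the fit without passing the threshold: Ccnb2 at -0.26 and -0.25, and Cdk1 at -0.23 and -0.22, against Vehicle and IDR in turn. For Cdk1 the injured arrays with IDR all lay below the IDR arrays (adjusted p = 0.0808).

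Of the 7 mitotic and checkpoint kinases, Ttk fell against Vehicle and Aurkb against IDR. Aurkb, aurora kinase B, corrects chromosome attachment and guides cytokinesis. It was at 7.90, 7.76, 7.74, 7.92 and 7.96 in IDR and 7.53, 7.43, 7.61, 7.51 and 7.55 in injured LPS/HI with IDR, 1.26-fold lower with no overlap (log2 fold change -0.33, SE 0.063, adjusted p = 0.00817). Vehicle arrays were at 7.95, 7.87, 7.96, 8.08 and 7.78 and injured arrays without the peptide at 7.69, 7.46, 7.57, 7.69 and 7.91, where 1 injured array reached the Vehicle range (log2 fold change -0.26, SE 0.085, adjusted p = 0.0725). The uninjured hemispheres were at 8.12, 7.69, 7.79, 7.92 and 7.95, and with IDR at 7.74, 7.74, 7.55, 7.44 and 7.90. LPS alone gave 7.86, 7.77, 7.73, 7.78 and 7.83, and LPS with IDR 7.85, 7.62, 7.79, 7.73 and 7.70. Ttk, the kinase that starts the spindle checkpoint, was at 5.68, 5.94, 6.01, 5.73 and 5.69 in Vehicle and 5.61, 5.54, 5.60, 5.45 and 5.57 in injured LPS/HI, all injured arrays being lower (log2 fold change -0.26, SE 0.075, adjusted p = 0.0495). That call sat at the threshold: leaving out any array other than Vehicle replicate 5 ended it (adjusted p 0.0566 to 0.12), including injured replicate 3 (0.0572). Bub1, which recruits checkpoint proteins to kinetochores, had the largest fold changes of all members and also the widest spread. Its log2 fold change was -0.56 (SE 0.17) against Vehicle and -0.63 (SE 0.18) against IDR, and it missed the threshold in both (adjusted p = 0.0598 and 0.062). Its Vehicle arrays were at 7.37, 7.07, 7.59, 7.63 and 6.73 and its injured arrays at 7.09, 6.46, 6.48, 7.0 and 6.57, and its SD over the 40 arrays was 0.41, where the other members had from 0.10 (Cdc45) to 0.27 (Kif11). Aurka, Bub1b and Melk were not called, with log2 fold changes of -0.19, -0.21 and -0.20 against IDR. Plk1, which acts throughout mitosis, differed least of the 7 there (-0.060, 95% interval -0.27 to 0.15).

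**Figure D4:**
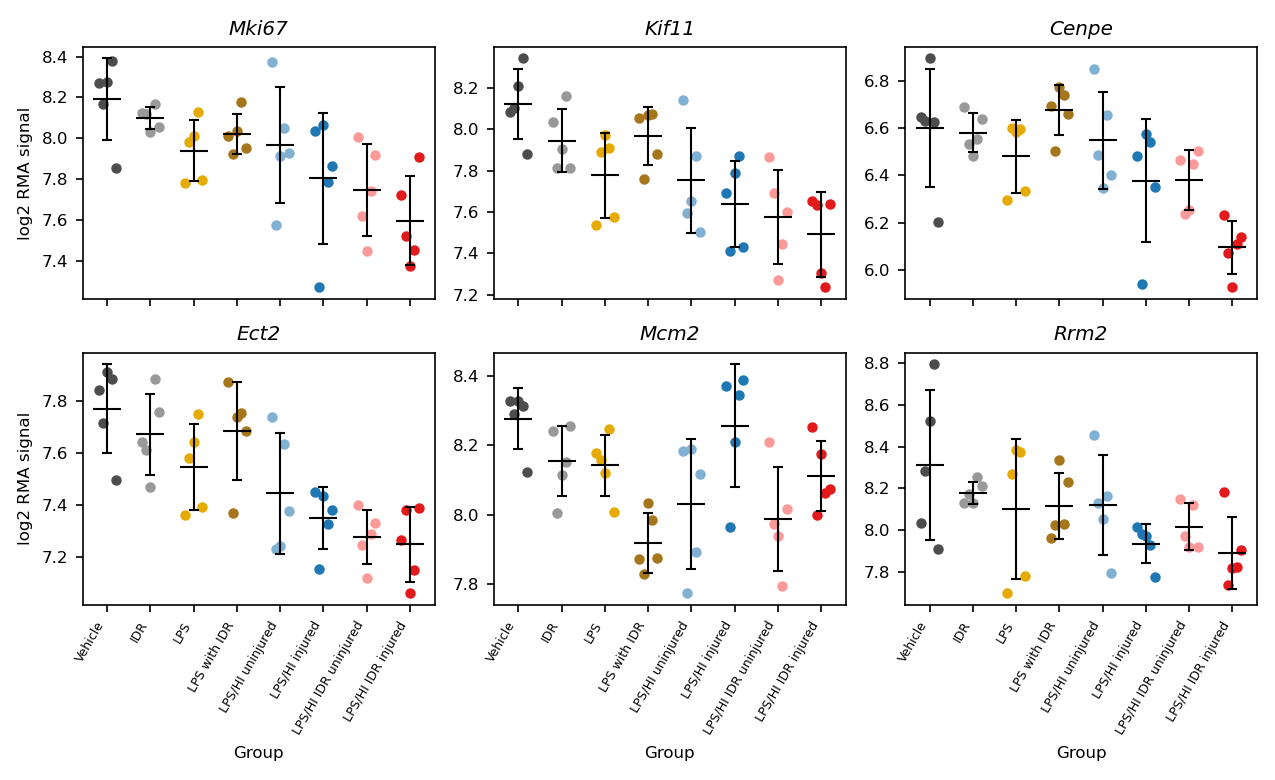
Log2 RMA signal of 4 mitosis genes (Mki67, Kif11, Cenpe, Ect2) and 2 S phase genes (Mcm2, Rrm2) in each array (points) with the group mean and SD (bars, n = 5), each gene on its own axis. Cenpe lies at 6.10 ± 0.11 in injured LPS/HI with IDR and 6.58 ± 0.083 in IDR, and Mcm2 at 7.92 ± 0.087 in LPS with IDR.

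The kinetochore genes moved unalike. Cenpe is a kinesin that carries chromosomes to the spindle equator, Cenpf is a large kinetochore protein of G2 and mitosis, and Cenpa is the histone that marks centromeres. Cenpe gave the smallest p of all members: IDR arrays were at 6.69, 6.53, 6.48, 6.55 and 6.64 and injured arrays with IDR at 6.23, 6.07, 5.93, 6.11 and 6.14. The groups were well apart, with the injured arrays 1.40-fold lower (log2 fold change -0.48, SE 0.069, adjusted p = 0.00139). Vehicle arrays were at 6.65, 6.63, 6.90, 6.63 and 6.20 and injured arrays without the peptide at 6.48, 5.94, 6.57, 6.54 and 6.35, each group with 1 array far below its others, and the difference was not called (log2 fold change -0.22, SE 0.13, adjusted p = 0.373). Uninjured hemispheres were at 6.85, 6.49, 6.35, 6.66 and 6.40 and, with IDR, at 6.47, 6.23, 6.25, 6.45 and 6.50. LPS gave 6.29, 6.60, 6.58, 6.60 and 6.33 and LPS with IDR 6.70, 6.51, 6.78, 6.74 and 6.66, the latter with a mean above Vehicle. Cenpf was at 6.95, 6.96, 6.83, 7.06 and 7.02 in IDR. It fell on both sides of peptide-treated LPS/HI brains, to 6.57, 6.57, 6.58, 6.39 and 6.66 on the uninjured side (log2 fold change -0.41, SE 0.068, adjusted p = 0.0215) and 6.48, 6.38, 6.65, 6.70 and 6.72 on the injured side (log2 fold change -0.37, SE 0.077, adjusted p = 0.0124). Neither side overlapped the IDR arrays. Against Vehicle, Cenpf was at -0.25 on the injured side (adjusted p = 0.172). Cenpa did not share this: injured arrays were at 8.10, 7.94, 8.03, 8.12 and 8.17 beside 7.92, 7.92, 8.14, 8.14 and 7.87 in Vehicle, and the fit gave 0.075 (95% interval -0.083 to 0.23) and, with the peptide, 0.022 (-0.13 to 0.17).

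The 8 genes of the spindle, its midzone and cytokinesis gave most calls: 3 were lower against Vehicle and 7 against IDR. Kif11, the motor that pushes spindle poles apart, was at 8.08, 8.11, 8.21, 8.34 and 7.88 in Vehicle and 7.69, 7.41, 7.79, 7.87 and 7.43 in injured LPS/HI. The highest injured array lay just under the lowest Vehicle array, and the signal was 1.40-fold lower (log2 fold change -0.49, SE 0.10, adjusted p = 0.00998). With the peptide the IDR arrays were at 8.04, 7.81, 7.91, 8.16 and 7.81 and the injured arrays at 7.66, 7.63, 7.30, 7.24 and 7.64, also without overlap (log2 fold change -0.45, SE 0.10, adjusted p = 0.0198). This call with the peptide was lost without IDR replicate 1 or 4 (adjusted p = 0.0576 and 0.0536). Ect2, the exchange factor that turns on RhoA for the cleavage furrow, was at 7.84, 7.72, 7.92, 7.89 and 7.50 in Vehicle and 7.45, 7.15, 7.43, 7.33 and 7.38 in injured LPS/HI. All injured arrays were lower, 1.34-fold on average (log2 fold change -0.42, SE 0.087, adjusted p = 0.00793). In the peptide groups it went from 7.64, 7.61, 7.47, 7.89 and 7.76 in IDR to 7.27, 7.38, 7.06, 7.15 and 7.39, again without overlap (log2 fold change -0.42, SE 0.089, adjusted p = 0.0136). Prc1 bundles the midzone microtubules. It was at 7.09, 7.0, 7.28, 7.28 and 6.93 in Vehicle and 6.84, 6.61, 6.92, 6.75 and 6.92 in injured LPS/HI (log2 fold change -0.31, SE 0.087, adjusted p = 0.0391), and the peptide groups differed by -0.37 (adjusted p = 0.0158). Without injured replicate 3, Kif11, Ect2 and Prc1 were still called lower against Vehicle, at -0.52 (adjusted p = 0.0108), -0.44 (adjusted p = 0.0108) and -0.34 (adjusted p = 0.0361). The Prc1 call was lost without any of Vehicle replicates 1, 3 and 4 or injured replicates 1, 2 and 4 (adjusted p 0.0701 to 0.108). It was also lost with Xist as a covariate (adjusted p = 0.123). For Prc1 the injured arrays lay below all Vehicle arrays, whereas 1 IDR array fell within the injured range. Kif20a, a midzone motor, was called only with the peptide: it was at 6.87, 6.95, 6.79, 6.91 and 6.92 in IDR and 6.68, 6.51, 6.59, 6.53 and 6.62 in injured LPS/HI with IDR, 1.23-fold lower with no overlap (log2 fold change -0.30, SE 0.058, adjusted p = 0.00859). Without it, Kif20a was at 6.88, 6.99, 7.01, 7.01 and 6.82 in Vehicle and 6.83, 6.47, 6.87, 6.91 and 6.77 on the injured side, and these groups overlapped (log2 fold change -0.17, SE 0.083, adjusted p = 0.253). Its uninjured hemispheres were at 7.12, 6.63, 6.85, 6.87 and 6.69 and, with IDR, 6.77, 6.63, 6.66, 6.51 and 6.85, and its LPS groups at 6.85, 6.88, 6.72, 6.90 and 6.71 and, with IDR, 6.69, 6.65, 6.73, 6.86 and 6.78. The chromosome motor Kif4, the spindle protein Nusap1 and the aurora A activator Tpx2 fell against IDR by 0.34, 0.32 and 0.30 on the log2 scale (adjusted p = 0.0226, 0.0469 and 0.0417). Leaving out any array other than IDR replicate 3 ended the Nusap1 call (adjusted p 0.0537 to 0.114). Any array other than IDR replicate 3 or injured replicate 4 ended that of Tpx2 (0.0552 to 0.0864). IDR replicate 1 or 4 or injured replicate 1 ended that of Kif4 (0.0504 to 0.0588). Blocking on the replicate number in limma also ended the calls against IDR of Kif11, Prc1, Kif4 and Tpx2 (adjusted p = 0.0899, 0.0526, 0.121 and 0.0576). Against Vehicle the values of Kif4, Nusap1 and Tpx2 were -0.36, -0.28 and -0.28, not called (adjusted p = 0.0544, 0.107 and 0.159). Kif23, the motor of centralspindlin, was not called in either, at -0.048 and -0.16.

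Mki67 and Top2a, often used as marks of dividing cells, fell against IDR and not against Vehicle by the threshold. Mki67 codes for Ki-67, which coats mitotic chromosomes, and Top2a for the topoisomerase that untangles them. Mki67 was at 8.12, 8.12, 8.03, 8.17 and 8.06 in IDR, a narrow group, and at 7.72, 7.52, 7.37, 7.45 and 7.91 in injured LPS/HI with IDR. Every injured array was lower, 1.42-fold on average, the largest fold among the called members (log2 fold change -0.50, SE 0.092, adjusted p = 0.00639). In Vehicle it was at 8.27, 8.17, 8.28, 8.38 and 7.86, and in injured LPS/HI at 8.03, 7.27, 8.07, 7.78 and 7.86. These groups overlapped, and injured replicate 2 was far below its others (log2 fold change -0.39, SE 0.14, adjusted p = 0.106). The uninjured hemispheres lay between, at 8.37, 7.58, 7.91, 8.05 and 7.93 without and 8.00, 7.62, 7.45, 7.74 and 7.92 with IDR. LPS gave 7.78, 7.98, 8.01, 8.13 and 7.79 and LPS with IDR 8.01, 7.92, 8.04, 8.18 and 7.95. Top2a had a like pattern, with 7.72, 7.55, 7.41, 7.88 and 7.66 in IDR and 7.23, 7.37, 7.03, 7.09 and 7.32 in injured LPS/HI with IDR. The groups did not overlap (log2 fold change -0.44, SE 0.094, adjusted p = 0.0157), though with the mean of both Top2a probe sets, 1 of them near the floor of the array at a mean of 2.98, the adjusted p was 0.0547. Vehicle was at 7.85, 7.51, 7.73, 7.83 and 7.50 and injured LPS/HI at 7.50, 6.87, 7.52, 7.40 and 7.52, which overlapped (log2 fold change -0.32, SE 0.12, adjusted p = 0.133). The other Top2a groups were uninjured at 7.96, 7.20, 7.34, 7.61 and 7.57, uninjured with IDR at 7.49, 7.12, 7.07, 7.23 and 7.61, LPS at 7.31, 7.49, 7.53, 7.76 and 7.43 and LPS with IDR at 7.55, 7.34, 7.89, 7.56 and 7.48. Cdc20, which starts anaphase, Birc5 (survivin), a partner of Aurkb, and Foxm1, a transcription factor of G2 genes, were not called. Their values against IDR were -0.22, -0.13 and -0.24, and Birc5 was 0.072 against Vehicle.

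The larger count with the peptide does not by itself show a larger effect. The difference of the injured effects with and without IDR was fitted after both counts were seen. It called 0 of 39 members by limma and 0% of all genes, with 0 members past an unadjusted p of 0.05 (0.752% of all genes lower and 0.687% higher). The median member differed by -0.023, with a typical 95% interval of 0.27 on either side. Mcm4 (0.20) and Tyms (-0.22) had its smallest p. Cenpe differed by -0.26 (95% interval -0.59 to 0.068) and Kif20a by -0.13 (-0.34 to 0.078). The peptide was also compared directly on the injured side. Of 39 members 36 were lower with IDR by the fit, beside 50.3% of all genes, with a median of -0.11 beside -0.00032. Limma called 0 members and 0% of genes, with 4 members lower and 1 higher at an unadjusted p under 0.05, beside 0.818% and 0.572% of all genes. The smallest p there were those of Pcna (log2 fold change 0.27, SE 0.10, adjusted p = 1), Cenpa (-0.18) and Cenpe (-0.28). On the uninjured side 37 of 39 were lower, beside 44.2% of all genes, with a median of -0.10 beside 0.0088. Again limma called 0 members and 0% of genes, with 3 lower at an unadjusted p under 0.05, beside 0.617% of all genes. Aurka came first, at -0.16 (adjusted p = 1), with no overlap of its arrays, followed by Cenpf (-0.20) and Aurkb (-0.22).

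The uninjured LPS/HI hemisphere was lower than its controls by the fit for most members, with 1 call. Against IDR, all 39 members had negative log2 fold changes in uninjured LPS/HI with IDR, beside 53.1% of all genes, with a median of -0.18 beside -0.0060 over all genes. Only Cenpf was called lower (1 of 39), where 0.0201% of all genes were called lower and 0.181% higher, and the call was lost without any of uninjured replicates 1, 2 and 3 or IDR replicates 1, 2, 4 and 5 (adjusted p 0.0501 to 0.0751). The Cenpf call was also lost in limma with the replicate number as a block (adjusted p = 0.0695). At an unadjusted p under 0.05, 20 members were lower, beside 2.85% of all genes. The next members were Ect2 (log2 fold change -0.40, SE 0.081, adjusted p = 0.0803) and Kif23 (log2 fold change -0.37, SE 0.081, adjusted p = 0.13), and neither overlapped its controls. Against Vehicle, limma called 0 members where 0.436% of genes were called, 10 members were lower at an unadjusted p under 0.05, beside 4.12% of all genes, and the median was -0.15 beside -0.028 over all genes. Prc1 (-0.33, adjusted p = 0.334), Kif11 (-0.37) and Foxm1 (-0.24) had the smallest p. These comparisons share their control arrays with those of the injured side. The difference of the uninjured effects with and without IDR called 0 members and 0% of genes by limma, with 0 members past an unadjusted p of 0.05. Tyms (-0.18) and Birc5 (-0.16) had its smallest p.

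Between the hemispheres of LPS/HI brains the members were called no more often than all genes. Limma called 0 of 39 members without the peptide, where 2.99% of genes were called. At an unadjusted p under 0.05, 1 was lower and 3 were higher, beside 5.78% and 9.23% of all genes. Cenpa had the smallest p, with 7.82, 7.67, 7.95, 7.82 and 7.79 on the uninjured and 8.10, 7.94, 8.03, 8.12 and 8.17 on the injured side (log2 fold change 0.27, SE 0.070, adjusted p = 0.0583). Same-numbered arrays of the hemispheres deviated together in all 5 pairs, so the pairs were also compared within numbers. Cenpa was higher on the injured side in 5 of 5 pairs, by 0.28, 0.27, 0.081, 0.30 and 0.39 log2 units, the smallest of these in replicate 3. With the replicate number as a block 3 of 39 members passed, where 10.2% of genes were called, so the count was below the share of all genes. They were Cenpa, higher (adjusted p = 0.0174), Kif23, higher (0.27, adjusted p = 0.0275) and Aurkb, lower (-0.23, adjusted p = 0.0396). Kif23 was higher in 5 of 5 pairs and Aurkb lower in 5 of 5. The helicase subunits Mcm2 and Mcm7 were higher in 5 of 5 pairs as well, by 0.19, 0.19, 0.021, 0.45 and 0.27 for Mcm2, without a call. Rrm2, another S phase gene, was lower in 5 of 5, also without a call (adjusted p = 0.109 by limma with the block). The share of all genes with 1 sign in 5 of 5 pairs was not counted. In the block over the 4 pairs other than replicate 3, chosen after the data were seen, 4 members passed (Cenpa, Kif23 and Mcm2 higher, Mki67 lower) where 12.3% of genes did, and Aurkb did not (adjusted p = 0.064). Without injured replicate 3 the unblocked count was again 0, and without uninjured replicate 3 Cenpa was called.

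**Figure D5:**
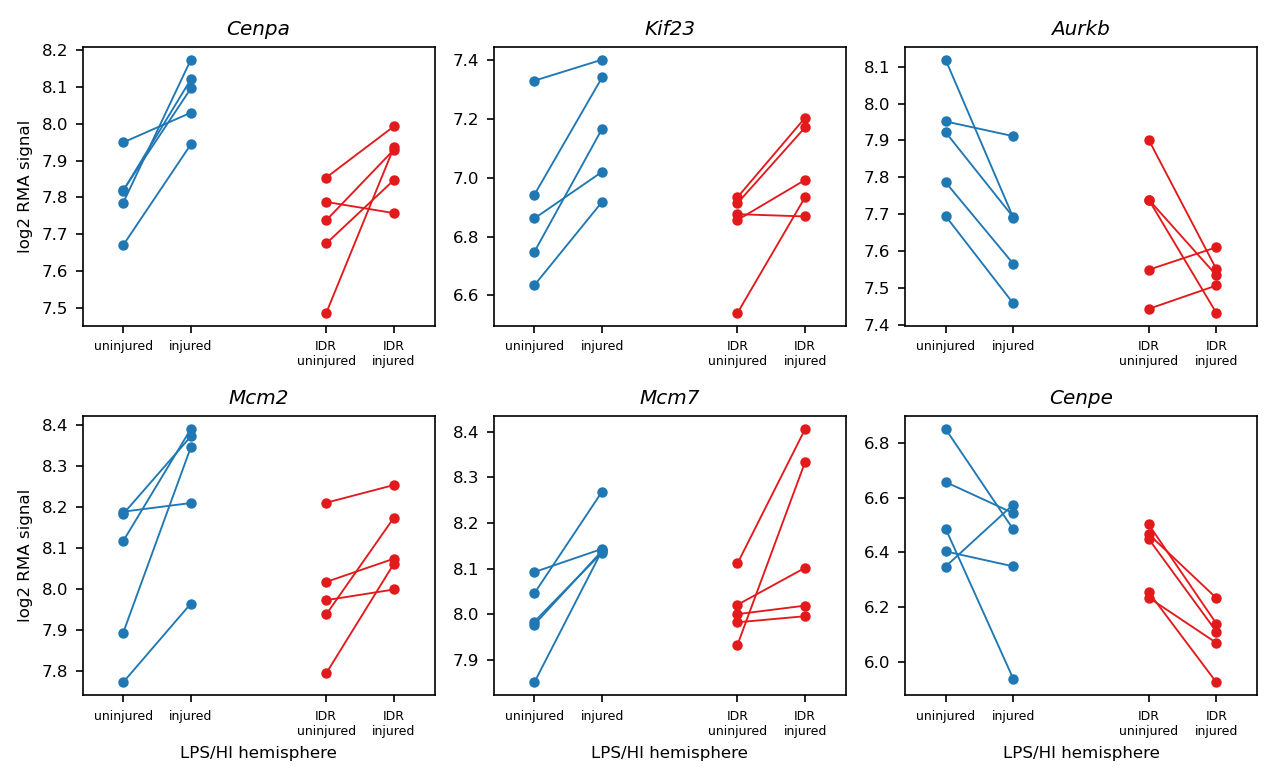
Log2 RMA signal of 6 genes in the uninjured and injured hemisphere of LPS/HI brains, without the peptide (blue) and with IDR (red). Lines join arrays of the same replicate number, 5 per group. Without the peptide Cenpa, Kif23, Mcm2 and Mcm7 are higher on the injured side in 5 of 5 lines and Aurkb is lower in 5 of 5, and with IDR Cenpe is lower in 5 of 5.

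With the peptide, limma called 0 members between the hemispheres, where 2.5% of genes were called, with 1 lower and 2 higher at an unadjusted p under 0.05, beside 5.78% and 8.62% of all genes. Cenpe was lower on the injured side in 5 of 5 pairs and its groups did not overlap (log2 fold change -0.29, SE 0.078, adjusted p = 0.0735). It was called with Xist (adjusted p = 0.0394) or the ribosomal protein level (0.0434) as a covariate, and with the replicate number as a block (0.027), though only 3 of the 5 same-numbered pairs correlated above 0.1. Cenpa (0.18) and Kif23 (0.21) were higher in 4 of 5 pairs each, and Mcm2 and Mcm7 in 5 of 5. Mki67 was lower in 5 of 5. The difference of the hemisphere effects with and without IDR called 0 members and 0% of genes by limma, and 0 members passed an unadjusted p of 0.05. Ccnb2 (0.22, 95% interval -0.088 to 0.52) and Pcna (0.28, -0.12 to 0.68) had its smallest p. 

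At 6 h after LPS the members were a little below Vehicle, with no call. Of 39 members 36 had negative log2 fold changes, beside 58.9% of all genes, with a median of -0.13 beside -0.018 over all genes. Limma called 0 members where 0.833% of genes were called, and 7 members were lower at an unadjusted p under 0.05, beside 3.42% of all genes. Kif11 led, with 7.54, 7.89, 7.97, 7.91 and 7.57 in LPS beside 8.08, 8.11, 8.21, 8.34 and 7.88 in Vehicle (log2 fold change -0.35, SE 0.10, adjusted p = 0.283), then Mcm4 (-0.20) and Mki67 (-0.25). All 5 LPS arrays and 2 of 5 Vehicle arrays had high Xist, and with Xist as a covariate the median was -0.12. In pups given the peptide, LPS with IDR against IDR called 0 members by limma, where 1.47% of genes were called, and 5 members were lower at an unadjusted p under 0.05, beside 6.04% of all genes. The 3 smallest p were all of licensing genes: Mcm5, Mcm2 (log2 fold change -0.24, SE 0.064, adjusted p = 0.115) and Cdc6 (log2 fold change -0.31, SE 0.087, adjusted p = 0.135). The 8 licensing genes ran from -0.31 (Cdc6) to -0.0039 (Mcm6). LPS with IDR against LPS alone called 0 members and 0% of genes by limma, with 3 members lower and 2 higher at an unadjusted p under 0.05. These counts lay near the shares of all genes, 8.06% lower and 5.35% higher. The smallest p were those of Mcm2 (-0.22), Bub1b (0.17) and Cenpe (0.20). The licensing genes ran from -0.22 (Mcm2) to -0.015 (Mcm6) there, and both comparisons use the same LPS with IDR arrays. The median of all members was -0.015, and 0.078 with Xist as a covariate. The difference of the LPS effects with and without IDR called 0 members and 0.00502% of genes, with 1 member lower and 1 higher at an unadjusted p under 0.05, beside 1.91% and 2.47% of all genes: Cdc6 (-0.27) and Kif11 (0.37, 95% interval 0.079 to 0.66). Rrm1 (0.20) came next.

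The peptide alone left no member past the threshold. IDR against Vehicle had a median of -0.073 beside -0.012 over all genes, with 35 of 39 members negative beside 59.1% of all genes. Limma called 0 members and 0% of genes, with 1 member lower at an unadjusted p under 0.05, beside 0.843% of all genes. That gene was Mcm4 (-0.18, adjusted p = 1), followed by Pcna (0.35) and Kif11 (-0.18). The typical 95% interval of a member was 0.18 on either side, so differences under that size could not be resolved with 5 arrays a group. Later LPS/HI against early LPS gave no member call either. On the uninjured side limma called 0 members, where 0.135% of genes were called, with 0 at an unadjusted p under 0.05 and a median of -0.020. Prc1 (-0.20), Cenpa (-0.12) and Cenpf (-0.14) had the smallest p. On the injured side limma called 0 members, where 5.43% of genes were called, with 2 lower and 2 higher at an unadjusted p under 0.05, beside 8.3% and 10.8% of all genes. Kif4 was lower by the fit (log2 fold change -0.32, SE 0.11, adjusted p = 0.117), and passed the threshold without injured replicate 5 (adjusted p = 0.0451). Without injured replicate 3 the count stayed at 0 there, in the effect of IDR on the injured side, and in the differences of the injured and hemisphere effects with and without IDR. Mcm7 (0.20) and Cenpa (0.14) were higher without a call.

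Genes of the same pathways that were not members moved in the same comparisons. Of 65 other mitosis genes measured, 11 fell and 0 rose in injured LPS/HI against Vehicle, where 3.89% of all genes were lower and 4.45% higher. The count was 14 without injured replicate 3. With the peptide against IDR 11 fell and 0 rose, where 2.35% of all genes were lower and 3.52% higher, with medians of -0.20 and -0.21. Against Vehicle the largest falls were those of Cks1b, a subunit of cyclin-dependent kinases (-0.46, SE 0.13, adjusted p = 0.0416), Esco2 of sister chromatid cohesion (-0.43), Nuf2 of the kinetochore (-0.42) and Racgap1, the centralspindlin partner of Kif23 (-0.42). Against IDR they were Sgo2a, a protector of cohesion (-0.53, SE 0.090, adjusted p = 0.00432), Cks1b (-0.47), the kinetochore scaffold Knl1 (-0.41) and the condensin subunit Smc2 (-0.38). Of 31 other replication genes, 4 fell against Vehicle, led by the polymerase epsilon gene Pole (-0.50, SE 0.10, adjusted p = 0.00543) and the primase gene Prim2 (-0.32), and 1 rose, the origin recognition gene Orc6 (0.24). A single rise among 31 is below the 4.45% of all genes, and without injured replicate 3 it was not called, while 5 fell. Against IDR 4 fell: the exonuclease Exo1 (-0.40), Pole (-0.36), Prim1 (-0.31) and the maintenance methyltransferase Dnmt1 (-0.25).

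Of 8 G1 cyclins and kinases, 1 rose and 1 fell in injured LPS/HI against Vehicle, with a median of -0.021, and 1 rose and 0 fell by limma against IDR. Cdk6 rose in the injured hemisphere against Vehicle (0.39, SE 0.085, adjusted p = 0.012), against IDR with the peptide (0.44) and against the uninjured side without (0.55) and with it (0.48). Cdk6 pairs with D cyclins to start the cycle. Cyclin D2 (Ccnd2) fell against Vehicle (-0.35, SE 0.065, adjusted p = 0.00429). Cyclin D1 (Ccnd1) fell 6 h after LPS (-0.32, SE 0.064, adjusted p = 0.0283), and in LPS with IDR against IDR (-0.44). On the injured side against early LPS, where 5.43% of genes were called, 2 of the 8 rose, the phosphatase gene Cdc25a (0.45) and Cdk6 (0.31). Of the 31 other replication genes, the checkpoint kinase Chek1 (0.58) and the origin factor Mcm10 (0.24) rose there, and Pole (-0.28) and the polymerase alpha subunit Pola2 (-0.26) fell. Of the 65 other mitosis genes, the centromere gene Cenpm (-0.36) and Cdca3 (-0.29) fell and 0 rose. Those counts were the same without injured replicate 3, apart from 4 mitosis genes lower. Among 6 CDK inhibitors, Cdkn2c, an inhibitor of Cdk4 and Cdk6, fell against Vehicle (-0.30) and against IDR (-0.33). Among 18 E2F, pocket protein and MuvB genes, E2f1 fell with the peptide, against IDR (-0.23, SE 0.055, adjusted p = 0.0286) and against the uninjured side (-0.29).

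Markers of the cells that the tissue holds were called in both directions in the same comparisons. In injured LPS/HI against Vehicle, beside 3.89% of all genes lower and 4.45% higher, 2 of 11 oligodendrocyte progenitor genes fell (Pdgfra -0.32 and Cspg4 -0.22), 2 of 12 neuroblast genes fell (Tubb3 -0.47 and Dcx -0.40), and 1 of 11 neuron genes fell (Neurod6 -0.86). Of 9 choroid plexus and ependyma genes 2 fell (Kcnj13 -0.52 and Tmem212 -0.30), and of 8 striatal genes 1 (Pde10a -0.30). In the same comparison 3 of 10 astrocyte genes rose (Gfap 0.63), 3 of 10 microglia genes rose (Itgam 0.89) and 1 fell (P2ry12 -0.61), and of 13 radial glia genes Vim rose (0.52). Of 11 neutrophil and monocyte genes, Plac8 rose (0.54). Without injured replicate 3 the counts were larger for several lists: 7 of 12 neuroblast genes fell, 5 of 8 myelin genes rose where 1 had, and 4 of 10 microglia genes rose. Of the 13 radial glia genes Emx2 was then called lower, beside the rise of Vim. Against IDR with the peptide, beside 2.35% of all genes lower and 3.52% higher, 1 of 11 oligodendrocyte progenitor genes (Pdgfra -0.37), 1 of 11 neuron genes (Neurod6 -0.75) and 2 of 8 striatal genes (Pde10a -0.36 and Gpr6 -0.36) fell. Of 10 microglia genes Itgam (0.70) and Aif1 (0.34) rose and P2ry12 (-0.63) fell. Of 11 neutrophil and monocyte genes Plac8 (0.43) and S100a8 (0.29) rose and Vcan (-0.27) fell. Vim (0.62), the astrocyte gene Gfap (0.48) and the endothelial genes Pecam1 (0.38) and Cdh5 (0.31) rose. The 24 markers of the cerebellum and its granule precursors had 1 call lower in each of these comparisons, Mycn (-0.31) and Neurod1 (-0.51), which is near the share of all genes. Their mean deviation over the arrays was -0.10 to 0.15 log2 units in Vehicle, -0.13 to 0.37 in injured LPS/HI, -0.056 to 0.042 in IDR and -0.11 to 0.069 in injured LPS/HI with IDR, so the groups overlapped. Means of the oligodendrocyte progenitor genes ran from -0.013 to 0.10 in Vehicle and from -0.16 to 0.089 in injured LPS/HI. Those of the neuroblast genes ran from 0.039 to 0.14 and from -0.26 to 0.16. Myelin genes, which rise as the brain matures, had means of -0.33 to 0.18 in Vehicle and -0.18 to 0.68 in injured LPS/HI, with Mbp called higher (0.44). The part of these cell types, and of the later time, in the fall of the mitosis genes was not tested. Ribosomal protein genes, which also follow RNA quality and composition, had means of 10.4 to 10.5 in Vehicle, 10.3 to 10.7 in injured LPS/HI, 10.2 to 10.6 in IDR and 10.3 to 10.7 in injured LPS/HI with IDR.

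The members varied together across arrays, the mitosis genes most of all. Over the 40 arrays the median Pearson correlation was 0.635 among the 325 pairs of mitosis genes, 0.35 among the 78 pairs of S phase genes and 0.324 between the phases. After each group's mean was removed these medians were 0.482, 0.392 and 0.309, so arrays of the same group also shared highs and lows. The medians over the 39 arrays other than injured replicate 3 were 0.642, 0.362 and 0.349. All arrays share the normalisation, and the values are a description. Mki67 (0.922), Ccna2 (0.91) and Top2a (0.9) lay closest to the mean of the other members, and Mcm7 (0.208), Cdc6 (0.172) and Pcna (-0.187) farthest from it. The genes outside the list most like the mean of the members were Knl1 (r = 0.854), Sgo2a (0.845), Prr11 (0.842), Kif15 (0.842), Cdkn3 (0.835), Cenpn (0.829) and Cdkn2c (0.814), followed by Pclaf, Ncapg, Nuf2, Aspm, Knstrn, Smc2, Cep55 and Hmmr (0.773 to 0.805). Of these 15, 10 were on the lists of other cell cycle genes, and all 15 kept a correlation of at least 0.61 within groups.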

How the data were processed

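Total RNA of 40 mouse brain samples was hybridised to Affymetrix gene arrays. The deposited values are log2 signals per probe set that the authors normalised by RMA with affy, per the submitters' processing notes; RMA subtracts background, sets all arrays to one distribution and summarises probes, so it removes shifts shared by most genes. Of 34760 probe sets, 21640 had 1 gene symbol in the platform annotation, 1321 several and 11799 none, and the last 2 classes were left out. The probe set with the highest mean signal stood for each of 19937 genes, and a probe set's level was never set against another's.

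Groups were compared with limma 3.58.1 (lmFit and eBayes, R 4.3.3) on the 2 groups of each comparison, or the 4 groups of a difference of differences, with Benjamini-Hochberg adjustment over all genes and a threshold of 0.05. The method was tested on simulated data. The members and lists were chosen with earlier results of these data known, so no test was made over the list itself. Called members were named by absolute log2 fold change. Where fewer than 3 were called, the 3 members with the smallest p were named. Array values are given for the members with the smallest p in each role and for further genes chosen after their values were seen (Ttk, Bub1, Cenpf, Cenpa, Kif11, Ect2 and Prc1). Promoter windows are those of RefSeq for GRCm38.p6.

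Replicate numbers are shared by the groups in the labels. Same-numbered arrays deviated together in all 5 pairs of injured against uninjured LPS/HI (correlations of 0.392 to 0.646) and of injured LPS/HI against Vehicle (0.116 to 0.443), where values with the number as a block are given. Some block values are also given for other comparisons, where same-numbered arrays did not all deviate together. The labels do not say what the number marks. The Xist and Y-linked signals of same-numbered hemispheres were alike in 4 of 5 pairs without the peptide, the exception being replicate 3, and in 5 of 5 with it. Alternatives were the mean of all probe sets, a minimum mean signal of 6 log2 units, a fit to all 8 groups, a trended robust prior, Xist or ribosomal protein level as a covariate, equal array medians, the block and leaving out each array. The number of arrays limits the precision.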

Additional observations from a re-analysis of the deposited data

Results flagged for a closer look

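In 5 of 104 sets of 5 arrays tested with Dixon's rule, 1 array lay far from the other 4. Chance gives about 1 in 20 such sets, so the number is close to what chance gives. Mcm2 was at 8.12 in Vehicle replicate 5, beside 8.29 to 8.33 in the other Vehicle arrays. Mcm5 was at 8.06 in uninjured LPS/HI replicate 1, beside 7.75 to 7.84. Top2a was at 6.87 in injured LPS/HI replicate 2, beside 7.40 to 7.52. That array also had the lowest mean deviation of the mitosis genes, -0.31 beside -0.019 to 0.040, and of all members, -0.23 beside -0.0082 to 0.055.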

How the results depend on the processing

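No value changed sign among those called. Under the alternatives, 364 medians of the members' log2 fold changes moved by less than the spread between arrays and 1 by more: LPS with IDR against LPS went from -0.015 to 0.078 with Xist as a covariate. Of the counts of called members, 333 stayed within 1.5 times, 17 were larger and 15 smaller. Fitted to all 8 groups, the count was 2 in LPS with IDR against IDR, 1 in injured against uninjured, 10 in injured LPS/HI against Vehicle and 1 in injured LPS/HI against LPS. With Xist as a covariate it was 1 in injured against uninjured with IDR and 2 in injured LPS/HI against Vehicle. With the ribosomal protein level it was 2 in each comparison of the hemispheres and 22 in injured LPS/HI with IDR against IDR. With a filter on low signal it was 1 in injured against uninjured. Leaving out an array gave 0 to 1 in injured against uninjured, 2 to 11 in injured LPS/HI against Vehicle, 0 to 1 in uninjured LPS/HI with IDR against IDR, 9 to 13 in injured LPS/HI with IDR against IDR and 0 to 1 in injured LPS/HI against LPS. The cause of these shifts was not tested. With the replicate block the count was 3 in injured against uninjured and 12 in injured LPS/HI against Vehicle. Over the 4 pairs other than replicate 3, an alternative chosen after the data were seen, it was 4 in injured against uninjured. In the other comparisons not every pair of same-numbered arrays correlated above 0.1; in injured against uninjured with IDR 3 of 5 did. There the block gave 1 in LPS against Vehicle, 1 in injured against uninjured with IDR, 0 in uninjured LPS/HI with IDR against IDR and 7 in injured LPS/HI with IDR against IDR, and changed no other member count.

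Counts over all genes moved by over 1.5 times in these cases. LPS against Vehicle went from 166 to 86 with Xist. Injured against uninjured went from 596 to 1431 with all groups, 1640 with ribosomal protein level, 2032 with the block, 2461 with it over 4 pairs and 285 without an array. With IDR it went from 498 to 1432, 2082 and 894 by the same 3 settings, to 1083 with Xist and to 230 without an array. Uninjured LPS/HI against Vehicle went from 87 to 52 with Xist, 143 with ribosomal protein level and 51 without an array. Injured LPS/HI against Vehicle went from 1663 to 917 with Xist and 964 without an array. Uninjured LPS/HI with IDR against IDR went from 40 to 67 with all groups, 21 with Xist and 21 to 66 without an array. Injured LPS/HI with IDR against IDR went from 1171 to 1909 with all groups, 3318 with ribosomal protein level, 498 with the block and 705 without an array. Uninjured LPS/HI against LPS went from 27 to 69, 13 and 58 with all groups, Xist and ribosomal protein level, and to 15 without an array. Injured LPS/HI against LPS went from 1082 to 1863 with all groups, 2092 with ribosomal protein level and 622 without an array. The LPS by IDR difference went from 1 to 0 with all groups or the filter, and 0 to 2 without an array.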

Other observations

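The genes outside the list whose signal ran most against the mean of the members over the 40 arrays were Baz2a (r = -0.702), Oaf (-0.699), Vwf (-0.673), Snhg11 (-0.665) and Ccl17 (-0.66). After each group's mean was removed, Baz2a kept -0.644 and Ccl17 -0.677, whereas Vwf went to -0.324. Vwf codes for von Willebrand factor of the endothelium and Ccl17 for a chemokine. In injured LPS/HI against Vehicle, 2 of 10 endothelial genes rose, Pecam1 (0.31) and Cdh5 (0.26), of which Cdh5 was not called without injured replicate 3, and 1 of 10 pericyte, meningeal and fibroblast genes fell, Rgs5 (-0.33). At 6 h after LPS, the endothelial receptor gene Tek fell (-0.85, SE 0.14, adjusted p = 0.00783), and the progenitor gene Nes fell (-0.43), while no member was called by limma and 7 were lower at an unadjusted p under 0.05.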
